A study of Mus musculus with 2 samples.

Results

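The box H/ACA small nucleolar RNAs (snoRNAs) of C2C12 nuclei were defined as the genes whose listed symbol begins with Snora, which gave 38 of the 55414 genes in the gene list that both libraries and both count matrices share. They carry 37 symbols, because Snora43 is listed as a pair of overlapping entries of 139 and 127 nt. All 38 were found by gene ID in the GENCODE M39 annotation of GRCm39, with lengths from 121 to 205 nt and a median of 132.5 nt. C2C12 is a mouse myoblast line, and the study made 1 single-nucleus library per group from its methanol-fixed nuclei. In the in situ polyadenylated library, yeast poly(A) polymerase added tails to RNA inside the nuclei for 25 min at 37 °C before droplet capture on poly(dT) primers. The standard library had no polymerase step and no such warm incubation. Per the study's methods its nuclei were counted once the wash buffer was on, while the polyadenylated nuclei were washed and pelleted again after the enzyme. The enzyme, the incubation and this further handling cannot be told apart. With 1 library per group there was no test between groups, and every interval below covers counting error only.

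H/ACA snoRNAs guide the conversion of uridine to pseudouridine in ribosomal and spliceosomal RNAs, and a few of them act in the cleavage of the ribosomal RNA precursor. Most are cut out of introns of host genes and then held in a particle with the pseudouridine synthase dyskerin (Dkc1) and the small proteins Nhp2, Nop10 and Gar1. They fold into a pair of hairpins, with an H box (ANANNA) in the hinge between them and an ACA triplet 3 nt before the 3′ end. They carry no encoded poly(A) tail.

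The sequences that the results turn on are those of 11 of the 12 genes with the most UMIs per 100 nt in in situ polyadenylated nuclei, and of the pairs that share stretches of sequence. They were read from GENCODE M39 on GRCm39, 5′ to 3′ with T for U. Capitals mark an ACA that ends 3 nt before the annotated end and the ANANNA match nearest to the midpoint.
Snora78 (128 nt, chr17:24938650-24938777, minus strand, within Snhg9): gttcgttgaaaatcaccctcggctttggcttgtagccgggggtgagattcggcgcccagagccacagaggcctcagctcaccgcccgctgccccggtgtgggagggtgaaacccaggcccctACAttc
Snora41 (132 nt, chr1:63218163-63218294, plus strand, within Eef1b2): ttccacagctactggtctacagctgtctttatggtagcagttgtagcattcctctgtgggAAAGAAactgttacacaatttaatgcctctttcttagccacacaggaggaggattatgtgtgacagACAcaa
Snora69 (131 nt, chrX:36346565-36346695, minus strand, within Rpl39): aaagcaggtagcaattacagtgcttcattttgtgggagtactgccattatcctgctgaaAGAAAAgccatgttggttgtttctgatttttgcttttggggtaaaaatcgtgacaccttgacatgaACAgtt
Snora57 (148 nt, chr19:8865902-8866049, minus strand, in no listed gene): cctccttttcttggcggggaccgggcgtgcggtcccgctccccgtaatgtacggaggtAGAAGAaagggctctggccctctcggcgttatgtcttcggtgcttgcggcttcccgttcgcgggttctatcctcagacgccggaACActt
Snora73b (205 nt, chr4:132079633-132079837, minus strand, within Rcc1 and Snhg3): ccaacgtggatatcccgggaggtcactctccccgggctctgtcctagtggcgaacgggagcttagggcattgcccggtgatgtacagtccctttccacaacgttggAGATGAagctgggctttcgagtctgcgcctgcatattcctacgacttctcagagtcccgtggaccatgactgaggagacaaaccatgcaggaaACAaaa
Snora73a (205 nt, chr4:132080086-132080290, minus strand, within Rcc1 and Snhg3): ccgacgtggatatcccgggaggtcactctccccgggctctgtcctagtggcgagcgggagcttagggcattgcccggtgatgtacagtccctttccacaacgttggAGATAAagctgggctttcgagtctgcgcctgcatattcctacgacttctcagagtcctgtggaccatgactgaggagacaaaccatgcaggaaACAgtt
Snora31 (130 nt, chr14:76085345-76085474, plus strand, within Tpt1): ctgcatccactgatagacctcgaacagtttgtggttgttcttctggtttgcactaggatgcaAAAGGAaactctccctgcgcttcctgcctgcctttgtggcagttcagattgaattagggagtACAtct
Snora21 (137 nt, chr11:97672465-97672601, minus strand, within Rpl23): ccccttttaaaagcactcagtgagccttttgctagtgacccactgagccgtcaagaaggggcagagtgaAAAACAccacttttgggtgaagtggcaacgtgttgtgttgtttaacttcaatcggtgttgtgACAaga
Snora17 (132 nt, chr2:26529202-26529333, minus strand, in no listed gene): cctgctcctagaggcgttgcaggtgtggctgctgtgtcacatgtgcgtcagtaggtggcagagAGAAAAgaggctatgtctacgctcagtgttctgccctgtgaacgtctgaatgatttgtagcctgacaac
Snora20 (128 nt, chr17:13141677-13141804, plus strand, within Tcp1): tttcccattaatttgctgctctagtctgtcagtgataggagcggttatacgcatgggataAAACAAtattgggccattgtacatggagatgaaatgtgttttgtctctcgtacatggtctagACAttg
Snora30 (130 nt, chr7:127127046-127127175, plus strand, within Gm42715 and Srcap): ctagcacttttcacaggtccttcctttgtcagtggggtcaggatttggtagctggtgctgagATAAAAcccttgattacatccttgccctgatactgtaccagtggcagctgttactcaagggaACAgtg
Snora2b (137 nt, chr15:98424227-98424363, minus strand, within Kansl2): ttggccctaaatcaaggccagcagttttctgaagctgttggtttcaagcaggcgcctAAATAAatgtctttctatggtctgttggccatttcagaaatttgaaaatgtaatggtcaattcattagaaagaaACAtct
Snora43 (139 nt, chr2:26527859-26527997, minus strand, in no listed gene): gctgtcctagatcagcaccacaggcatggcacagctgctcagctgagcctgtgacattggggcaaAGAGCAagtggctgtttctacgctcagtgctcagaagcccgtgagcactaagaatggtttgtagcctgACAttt
Snora43 (127 nt, chr2:26527860-26527986, minus strand, in no listed gene): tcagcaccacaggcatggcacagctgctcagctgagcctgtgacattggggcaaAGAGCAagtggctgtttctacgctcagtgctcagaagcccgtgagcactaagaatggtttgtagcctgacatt

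An ACA at that exact place was present in 31 of the 38 H/ACA genes (81.6%), in 0 of the 106 box C/D snoRNAs (symbols beginning with Snord), and in 8.24% of 2901 other listed transcripts of the same length range. ANANNA in the third of the length around the midpoint was present in 35 of 38 (92.1%), against 53.8% of the C/D genes and 67.3% of the other transcripts, so ANANNA alone is common in sequences of this length. Both stood in 29 of 38 and in 7.58% of the other transcripts. Snora17 has no ACA at the exact place in the annotated sequence, Snora78 has no ANANNA around its midpoint, and the 127-nt entry of Snora43 ends 1 nt earlier than the 139-nt entry, so that its ACA falls 1 nt off the exact place. Snora73a and Snora73b, which act in pre-rRNA cleavage, were identical at 198 of 205 positions (96.6%) and shared 76 31-mers.

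The in situ polyadenylated library held 6761140 UMIs in the transcript-based kallisto matrix and the standard library 10593453. Nuclei were barcodes with over 750 kallisto UMIs and under 5% mitochondrial UMIs, which gave 1335 and 1123 nuclei with medians of 1088 and 996 UMIs. The myoblast markers Myod1, Myf5, Des, Cdh15 and Vim were present in both sets of nuclei, with Des at 360 and 636 UMIs and Myod1 at 15 and 13. Markers of differentiated muscle were present too, with Myh3 at 98.7 and 77 UMIs and Tnnt3 at 34 and 26. Acta1 had 7 and 10, Myog 3 and 2, and Ckm 1 and 1. Of 6 markers of other cell types, Epcam, Krt18, Adipoq and Col2a1 were at 0 in both sets by kallisto. Ptprc was at 0 and 4 UMIs, and Pecam1 at 10.1 and 35.0. In the genome-based STAR matrix Pecam1 had 70 and 53, Col2a1 21 and 8 and Ptprc 6 and 6. Epcam had 4 and 2 there, Krt18 3 and 0, and Adipoq 1 and 0. The libraries listed 50944 barcodes in common, of which 0 were nuclei in both. Of the 1335 and 1123 nuclei, however, 728 and 619 had a barcode that the other library also listed. Those nuclei held 51 and 5 H/ACA UMIs. The genome-based STAR matrix listed 3791 and 8474 barcodes, among them 1328 and 1123 of the nuclei.

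H/ACA snoRNAs were rare in both libraries. In in situ polyadenylated nuclei they took 79 of 1974403 UMIs, or 0.00400% (95% exact binomial interval 0.00317 to 0.00499%), from 14 genes. In standard nuclei they took 10 of 1382984 UMIs, or 0.000723% (0.000347 to 0.00133%), from 7 genes. Over all barcodes the in situ polyadenylated library had 680 H/ACA UMIs from 17 genes and the standard library 54 from 11 genes. The remaining 21 genes had no UMI in either library or either matrix, which allows up to 3 UMIs in each library. Among them were Snora7a, Snora64, Snora65, Snora70 and Snora74a.

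**Figure D1:**
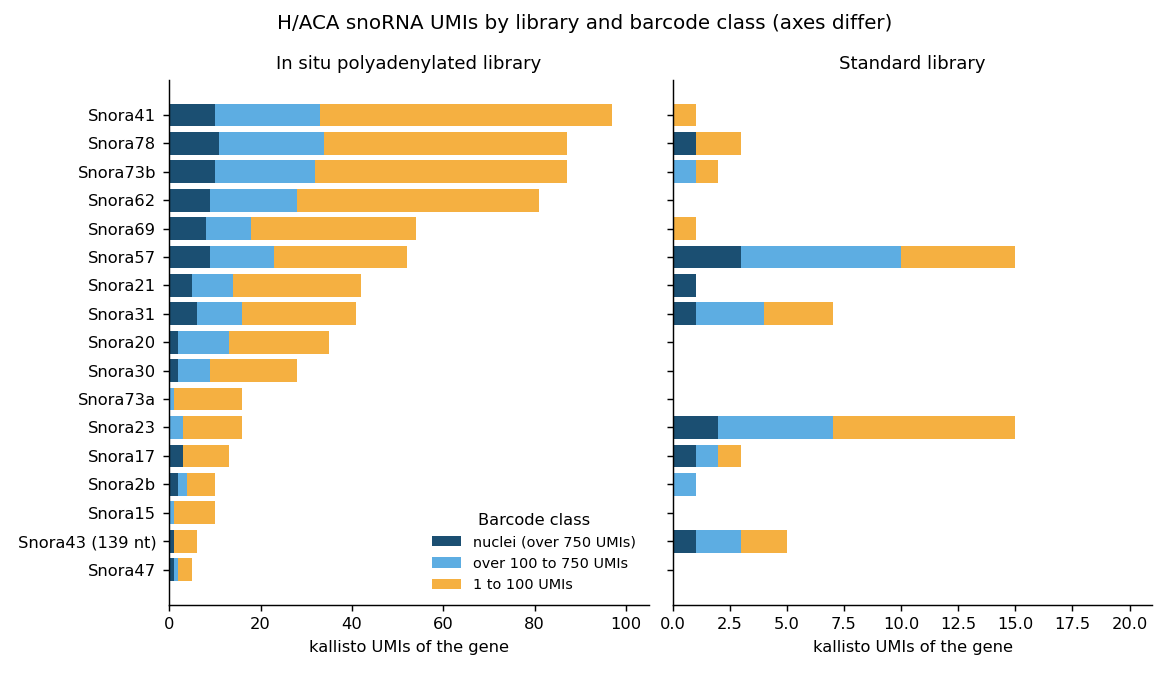
Bars give the kallisto UMIs of the 17 detected H/ACA genes, stacked by barcode class, in the in situ polyadenylated library (left) and the standard library (right), on axes of different length. The left panel reaches 97 UMIs for Snora41, and the right panel reaches 15 UMIs for Snora57 and Snora23.

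Snora41, Snora78 and Snora73b held 271 of the 680 UMIs (39.9%). Snora41, from the translation elongation factor gene Eef1b2, had 10 UMIs in in situ polyadenylated nuclei, 23 in barcodes of over 100 to 750 UMIs and 64 in barcodes of 1 to 100 UMIs. In the standard library it had 1 UMI in all. Snora78, from the noncoding host gene Snhg9, had 11, 23 and 53 UMIs in the same classes and 3 in the whole standard library. Snora73b had 10, 22 and 55 UMIs, against 2 in the standard library, and Snora62, from the ribosomal protein gene Rpsa, had 9, 19 and 53, against 0. The counts of these 4 genes in the in situ polyadenylated library exceeded those in the standard library in each class.

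The next 6 genes held between 28 and 54 UMIs each in the in situ polyadenylated library. Snora69, from the ribosomal protein gene Rpl39, had 54 UMIs against 1 in the standard library. Snora57 had 52 against 15, and Snora21, from Rpl23, had 42 against 1. Snora31, from Tpt1, which encodes the translationally controlled tumour protein, had 41 against 7. Snora20, from the chaperonin gene Tcp1, had 35 against 0, and Snora30, from the chromatin remodeller gene Srcap, had 28 against 0. The last 7 detected genes had 5 to 16 UMIs, and the median over the 17 was 35.

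Levels are also given here as UMIs per 100 nt of gene over all barcodes of the in situ polyadenylated library. A UMI marks 1 molecule captured at its tail, so counts need not grow with gene length, and this scale lowers longer genes. Snora73b (205 nt) and Snora78 (128 nt), for example, had 87 UMIs each. On this scale the level was 73.5 for Snora41, 68.0 for Snora78, 54.4 for Snora62, 42.4 for Snora73b and 41.2 for Snora69. It fell through 35.1 for Snora57, 31.5 for Snora31, 30.7 for Snora21 and 27.3 for Snora20 to 21.5 for Snora30. The other 7 genes had levels from 3.62 for Snora47 to 9.85 for Snora17. Of the 16 pairs of neighbours in this order only Snora30 and Snora17 had an interval of their ratio above equality, at 1.13 on the log2 scale (0.13 to 2.20). The other 15 neighbouring pairs did not differ beyond counting error, and genes farther apart in the order were not compared. The near-identical Snora73a and Snora73b had 16 and 87 UMIs, and because they share 31-mers the split of reads between them is uncertain.

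The first question was how far in situ polyadenylation moved the capture of these RNAs. The H/ACA share of UMIs was 5.53-fold higher in in situ polyadenylated than in standard nuclei, a log2 ratio of 2.47 (1.51 to 3.58). Relative to the median protein-coding gene, which stood at -1.19 on the same log2 scale over 2114 genes, the difference was 3.66 (2.71 to 4.78). It was 21.6-fold (14.3 to 34.1) in barcodes of 1 to 100 UMIs, with 445 UMIs of 2055642 against 24 of 2394255. It was 19.5-fold (12.2 to 32.8) in barcodes of over 100 to 750 UMIs, and 19.7-fold (14.9 to 26.5) over all barcodes.

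Single genes were too shallow in nuclei for the 2-fold rule, which asked for 20 UMIs in both libraries together. In nuclei 0 H/ACA genes reached that minimum, where 1.46% of 8423 genes tested were at least 2-fold higher in the in situ polyadenylated library. With a minimum of 5 UMIs, 8 genes were tested and 7 were called against a background of 2.05%, all but Snora69. Its 8 UMIs against 0, set to 3, put it 1.87-fold higher. Among the 7, the log2 intervals of Snora21 (-1.35 to 7.37), Snora31 (-0.97 to 7.59) and Snora57 (-0.93 to 3.59) included 0. Those of Snora41, Snora73b, Snora62 and Snora78 lay above 0, with lower ends from 0.16 to 0.65. In barcodes of 1 to 100 UMIs, 9 of 10 tested genes were called against 2.93%, and over all barcodes 10 of 11 against 2.52%. Nearly all of the UMIs of these genes lay in the in situ polyadenylated library, so those that reached the minimum through it alone had to differ, and the counts are given as a description. The median log2 ratio of the 11, with a 0 set to 3 UMIs, was 5.40, beside -1.32 for all genes tested.

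Gene by gene, Snora41 had 14.3 CPM over all in situ polyadenylated barcodes and 0.0944 CPM over all standard barcodes, a log2 ratio of 7.25 (4.74 to 12.57). The log2 ratio was 6.40 (3.86 to 11.73) for Snora69 and 6.09 (4.19 to 9.16) for Snora73b. It was 6.04 (3.48 to 11.38) for Snora21 and 5.51 (3.91 to 7.81) for Snora78. Snora62, Snora20 and Snora30 were at 0 UMIs in the standard library. Set against 3 UMIs over that whole library, they were 42.3-fold, 18.3-fold and 14.6-fold higher. The lower ends of their exact log2 intervals were 5.07, 3.82 and 3.48. Snora31 and Snora57 had smaller log2 ratios of 3.20 (2.03 to 4.60) and 2.44 (1.59 to 3.38). All 17 detected genes had the higher CPM in the in situ polyadenylated library, and the interval lay above 0 for 15.

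The exceptions were Snora23 and Snora43. Snora23, from the nuclear import receptor gene Ipo7, had 16 UMIs over the in situ polyadenylated library and 15 over the standard library, a log2 ratio of 0.74 (-0.37 to 1.86). By class it had 0, 3 and 13 UMIs in nuclei, barcodes of over 100 to 750 UMIs and barcodes of 1 to 100 UMIs of the first, and 2, 5 and 8 in those of the second. The longer Snora43 entry had 6 against 5 UMIs, a log2 ratio of 0.91 (-1.07 to 2.96). Snora23 and Snora57, at 15 UMIs each, made up 30 of the 54 H/ACA UMIs of the standard library. Without Snora23 the group ratio over all barcodes was 26.7-fold (19.3 to 37.9).

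The second question was whether these UMIs lay with nuclei or in barcodes of 1 to 100 UMIs, which in droplet data hold mainly free RNA. In the in situ polyadenylated library the H/ACA share was 0.0216% (0.0197 to 0.0238%) in those barcodes, 0.00571% (0.00485 to 0.00668%) in barcodes of over 100 to 750 UMIs and 0.00400% in nuclei. The first exceeded the last 5.41-fold, a log2 ratio of 2.44 (2.09 to 2.80). In the standard library the same ratio was 1.39-fold on 24 and 10 UMIs, a log2 ratio of 0.47 (-0.65 to 1.70). Its barcodes of over 100 to 750 UMIs had 20 of 6816214 UMIs, or 0.000293% (0.000179 to 0.000453%), below the 0.000723% of its nuclei. In the in situ polyadenylated library, where the nuclei had the lower share, H/ACA RNA of a nucleus and free RNA cannot be told apart. For the standard library the difference between barcodes of 1 to 100 UMIs and nuclei was not resolved.

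**Figure D2:**
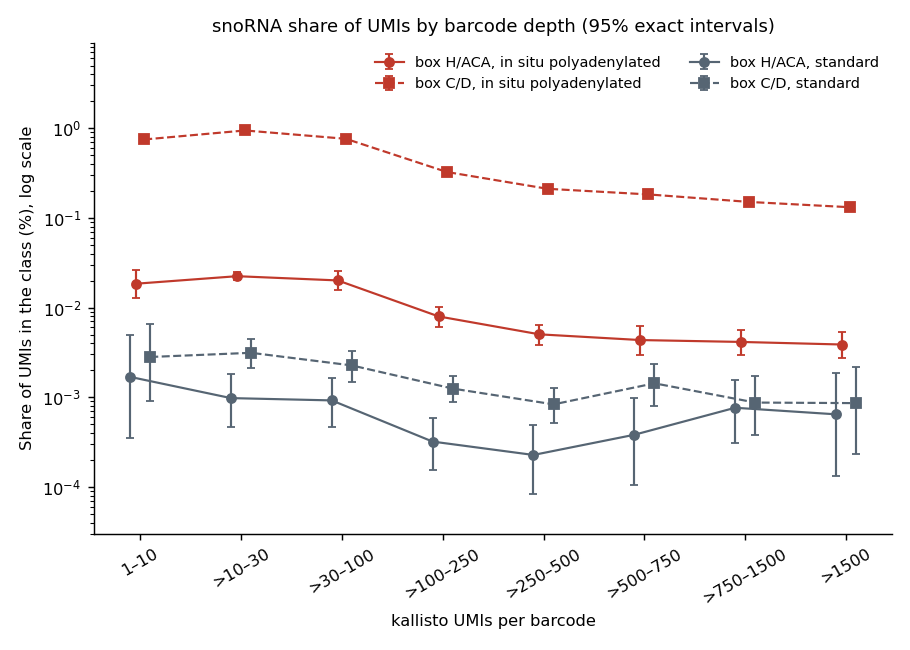
Points give the share of kallisto UMIs from H/ACA and C/D snoRNAs in 8 classes of barcode depth, with 95% exact binomial intervals, on a log axis. In the in situ polyadenylated library the H/ACA share lay between 0.0185 and 0.0224% up to 100 UMIs per barcode and between 0.00387 and 0.00796% above.

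The step fell near 100 UMIs per barcode. The H/ACA share was 0.0185% in barcodes of 1 to 10 UMIs, 0.0224% in those of over 10 to 30 and 0.0201% in those of over 30 to 100, with overlapping intervals. It was 0.00796% (0.00613 to 0.0102%) in barcodes of over 100 to 250 UMIs, below the interval of each shallower class. From over 250 to over 1500 UMIs it moved from 0.00503 to 0.00387%, again with overlapping intervals.

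Each of the 17 detected genes had a higher CPM in barcodes of 1 to 100 UMIs than in nuclei of the in situ polyadenylated library, and the interval lay above 0 for 13. Of the 10 with at least 20 UMIs in both classes together, 10 were at least 2-fold higher, against 18.4% of the 8012 genes tested. Their median log2 ratio was 2.41, beside 0.39 for all genes tested. None of the 10 had more than 11 UMIs in nuclei and all but Snora30 reached the minimum through the shallow class alone, so the minimum favoured genes high in that class and these counts are a description. Snora20 stood highest, at 3.40 (1.38 to 6.53) on 22 and 2 UMIs, followed by Snora30 at 3.19 (1.14 to 6.34). Next came Snora41 at 2.62 (1.65 to 3.75), Snora62 at 2.50 (1.47 to 3.71) and Snora21 at 2.43 (1.04 to 4.16). Snora57 stood lowest at 1.63 (0.51 to 2.89), below Snora31 at 2.00 (0.68 to 3.58), Snora69 at 2.11 (0.98 to 3.43), Snora78 at 2.21 (1.26 to 3.30) and Snora73b at 2.40 (1.42 to 3.54). The interval of each of the 17 genes included the group's own ratio, so differences between genes were not resolved at this depth.

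**Figure D3:**
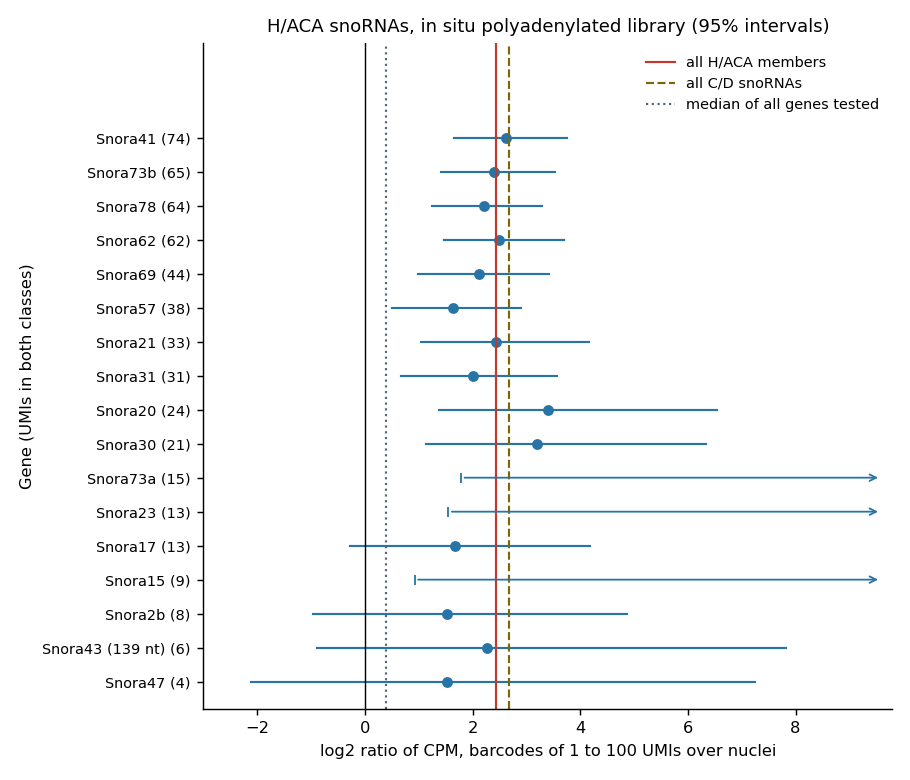
Points give each gene's log2 ratio of CPM in barcodes of 1 to 100 UMIs over nuclei, with 95% exact intervals; an arrow marks a gene at 0 in nuclei, drawn from its lower bound. All point estimates lie right of 0, and every interval spans the line of the whole group at 2.44.

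Snora73a, Snora23 and Snora15 had 15, 13 and 9 UMIs in barcodes of 1 to 100 UMIs and 0 in nuclei of this library. Set against 3 UMIs over the nuclei, they were 4.80-fold, 4.16-fold and 2.88-fold higher in the shallow barcodes. The lower ends of their exact log2 intervals were 1.78, 1.55 and 0.92. Snora73b, nearly identical to Snora73a, had 10 UMIs in the nuclei.

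Box C/D snoRNAs, the other large snoRNA class, guide ribose methylation and are also mostly intronic. The H/ACA genes had 0.0284 UMIs (0.0224 to 0.0355) for each C/D UMI in in situ polyadenylated nuclei, 79 against 2782, and 0.833 (0.323 to 2.10) in standard nuclei, 10 against 12. The odds of a UMI being from the in situ polyadenylated rather than the standard nuclei were 29.2-fold higher for C/D than for H/ACA snoRNAs (10.9 to 76.2). Without the 3 abundant genes Snord118, Snord13 and Snord17 they were 12.4-fold higher (4.59 to 33.4), so the gap did not rest on those genes alone. In barcodes of 1 to 100 UMIs the odds ratio was 15.5 (9.20 to 25.4) with all C/D genes and 10.6 (5.90 to 18.9) without those 3.

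The classes did not differ in the step between shallow barcodes and nuclei beyond counting error. The C/D share was 6.36-fold higher in barcodes of 1 to 100 UMIs than in nuclei, and the odds ratio of H/ACA to C/D for this step was 0.850 (0.665 to 1.10). Of the genes with at least 1 31-mer found in no other listed gene, 12 were H/ACA and 36 were C/D genes. Their median levels over all in situ polyadenylated barcodes were 15.7 and 166.0 UMIs per 100 nt. In UMIs per gene, without division by length, the medians were 22 and 154.

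The third question was how the choice of matrix bears on these counts. In the nuclei present in both matrices of the in situ polyadenylated library, STAR counted 126 H/ACA UMIs and kallisto 79, a ratio of 1.59 (1.19 to 2.14), while over all genes STAR counted 5.86 times as many. The STAR UMIs came from 3 genes and the kallisto UMIs from 14. Snora57 had 96 UMIs by STAR and 9 by kallisto, a ratio of 10.7 (5.39 to 24.0). Snora17 had 14 and 3, a ratio of 4.67 (1.30 to 25.3), and the longer Snora43 entry had 16 and 1. Snora41, Snora78, Snora73b, Snora62 and Snora69, with 8 to 11 kallisto UMIs each, had 0 by STAR. In standard nuclei STAR counted 9 UMIs, all from Snora57, Snora17 and Snora43, and kallisto 10 from 7 genes.

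By STAR over all its barcodes the 3 genes had 227 in situ polyadenylated and 26 standard UMIs. Snora57 had 177 against 11, a log2 ratio of 4.02 (3.14 to 5.04). Snora43 had 27 against 5, at 2.44 (1.04 to 4.17), and Snora17 had 23 against 10, at 1.21 (0.08 to 2.45). Each of the 3 was higher in the in situ polyadenylated library, Snora17 by the smallest ratio. In nuclei Snora57 alone reached 20 STAR UMIs and was at least 2-fold higher, as were 4.39% of the genes tested. The STAR matrix listed only 14 and 22 barcodes of 1 to 100 kallisto UMIs, with 8387 and 15575 UMIs in all and 0 from H/ACA genes, which allows a share of up to 0.0358 and 0.0193%.

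Which genes were counted went with where they lie in the annotation. In M39, 34 of the 38 genes lie inside the body of another listed gene on the same strand, 27 of them within a protein-coding gene and 11 within a ribosomal protein gene. Snora17, Snora57 and both Snora43 entries lie in none, although M39 places Snora17 and Snora43 within Snhg7 and Snora57 within Gm59359, which are not in the gene list. STAR gave 0 UMIs to all 34 genes inside a listed gene and UMIs to 3 of the 4 outside. The exception was the 127-nt Snora43 entry nested in the longer one. Of the C/D genes, STAR gave UMIs to 2 of 5 outside any listed gene and to 1 of 101 inside. That 1 gene had 19345 in situ polyadenylated and 34 standard UMIs over all STAR barcodes, so lying inside a listed gene did not always go with 0.

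For kallisto, which assigns reads by 31-mers, 11 of the 12 genes with a 31-mer found in no other listed gene were detected, and 6 of the 26 without. The exception among the 12 was Snora35, which lies in the serotonin receptor gene Htr2c and is known as a brain snoRNA; Htr2c itself had 0 and 1 UMIs over all barcodes by kallisto, and 47 and 76 by STAR. The 6 detected without such a 31-mer were Snora41, Snora78, Snora73a, Snora73b, Snora21 and Snora15, with 339 of the 680 UMIs. In 24 genes every 31-mer also lay in an annotated transcript of the host, that is, the gene is exonic in at least 1 host isoform; 6 of these were detected. Of the 8 genes inside a host none of whose transcripts holds their 31-mers, 7 were detected. The C/D genes showed the same split, with 33 of 36 against 15 of 70 detected. Whether the annotation set these counts was not tested, and the M28 transcripts behind the files were not used here.

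**Figure D4:**
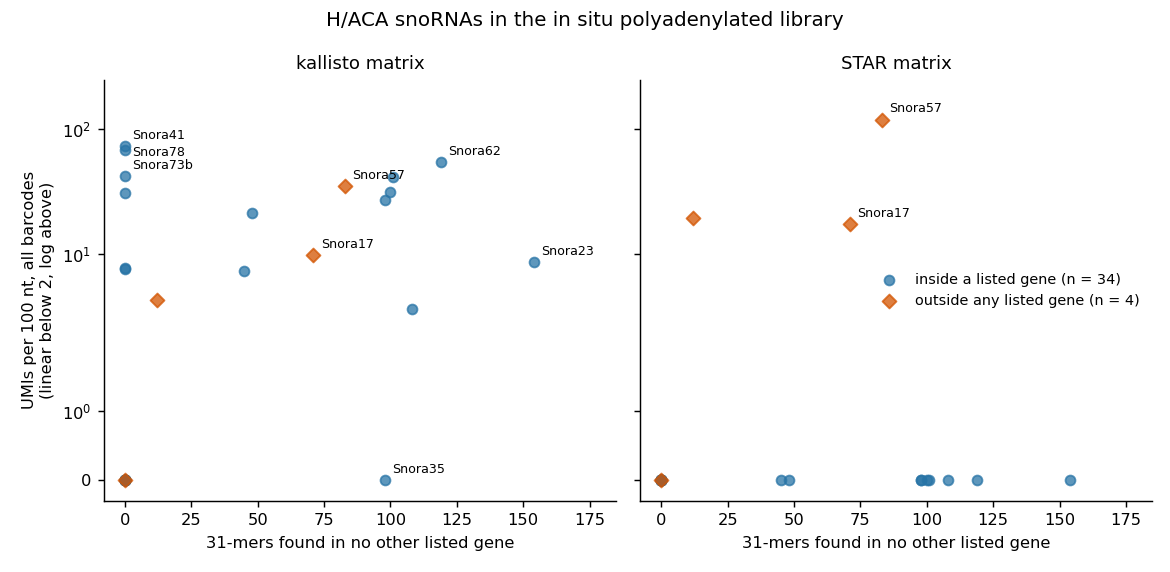
Each point is 1 of the 38 H/ACA genes, with the number of its 31-mers found in no other listed gene against its UMIs per 100 nt over all barcodes of the in situ polyadenylated library, by kallisto (left) and STAR (right). The 34 genes inside a listed gene (circles) are all at 0 by STAR; 20 genes overlap at the origin on the left.

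Most host genes had lower CPM in in situ polyadenylated than in standard nuclei, as did the median gene. Of 34 listed host genes, 28 reached 20 UMIs in nuclei and 1 was at least 2-fold higher in the in situ polyadenylated library (1.46% of all genes). Their median log2 ratio was -1.26, beside -1.41 for all genes tested. Eef1b2, host of Snora41, had 44 and 65 UMIs in the nuclei, a log2 ratio of -1.08 (-1.66 to -0.50). Rpsa, host of Snora62, had 193 and 323, at -1.26 (-1.52 to -0.99), and Rpl39, host of Snora69, had 14 and 36, at -1.88 (-2.88 to -0.95). Snhg9, host of Snora78, had 0 and 5 UMIs by kallisto and 98 and 182 by STAR.

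Rcc1 and Snhg3, which both hold the Snora73 genes, had 18 against 21 and 28 against 63 UMIs in nuclei, at log2 ratios of -0.74 (-1.73 to 0.24) and -1.68 (-2.38 to -1.02). Tpt1, host of Snora31, stood at -0.90 (-1.27 to -0.53), Rpl23, host of Snora21, at -1.42 (-1.78 to -1.06), Tcp1, host of Snora20, at -1.66 (-2.04 to -1.29), Srcap, host of Snora30, at -1.19 (-1.84 to -0.56) and Kansl2, host of Snora2b, at -1.33 (-1.63 to -1.03). The point value of each of these hosts was below 0, and the interval included 0 for Rcc1.

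**Figure D5:**
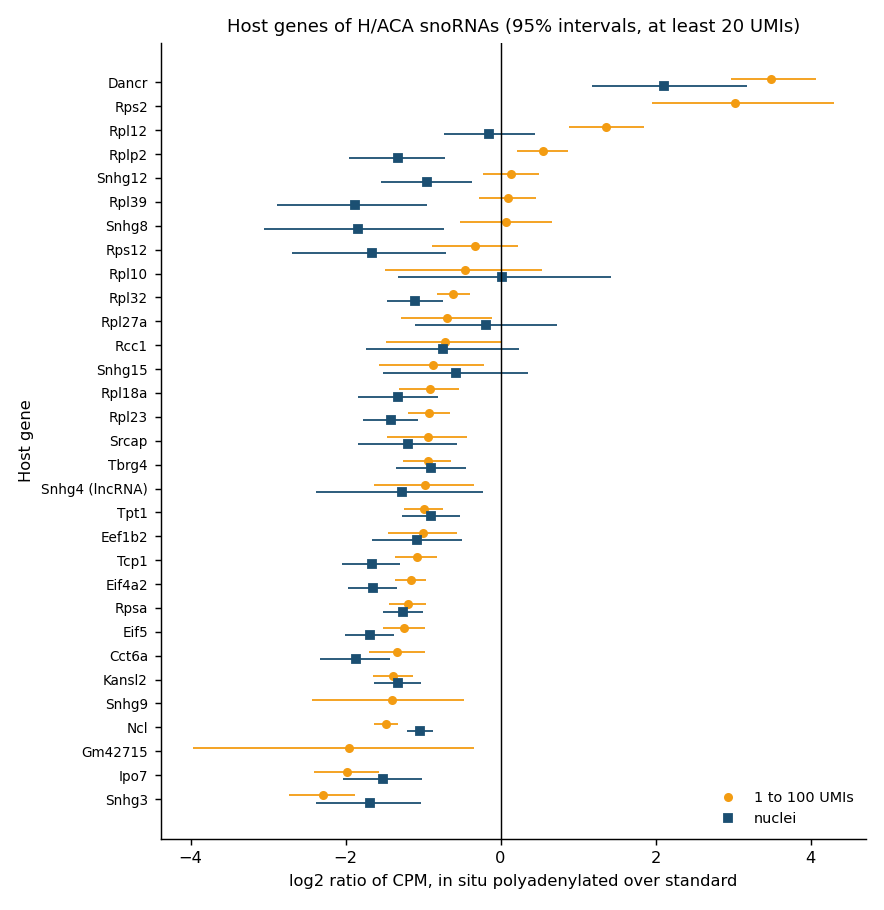
Points give the log2 ratio of CPM, in situ polyadenylated over standard, of the H/ACA host genes with at least 20 UMIs, in barcodes of 1 to 100 UMIs (circles) and nuclei (squares), with 95% exact intervals. Most lie left of 0. The interval of Dancr is right of 0 in both classes, and those of Rpl12 and Rplp2 in the shallow barcodes only. That of Rps2 is right of 0 in the shallow barcodes, and Rps2 has too few UMIs in nuclei to be drawn there.

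In barcodes of 1 to 100 UMIs, 3 of 31 host genes were called, against 2.93% of all genes, and they are named here after their values were seen. The long noncoding RNA gene Dancr, host of Snora26, had 310 UMIs in this class against 32, at a log2 ratio of 3.50 (2.97 to 4.07). In nuclei it had 68 against 11, at 2.11 (1.19 to 3.18), and by STAR 1743 against 43. Rps2, host of Snora64, had 56 against 8, at 3.03 (1.95 to 4.31), and Rpl12, host of Snora65, had 119 against 54, at 1.36 (0.88 to 1.85). In nuclei Rps2 and Rpl12 stood at -0.32 (-1.98 to 1.37) and -0.15 (-0.73 to 0.45). Snora26, Snora64 and Snora65 are at 0 in both matrices, and every one of their 31-mers also lies in a transcript of the host. Whether reads of these snoRNAs were counted for the hosts was not tested.

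The genes of the H/ACA particle's proteins had lower CPM in the in situ polyadenylated nuclei, apart from Naf1. So did the median gene tested, at a log2 ratio of -1.41, and the median protein-coding gene, at -1.19. Dkc1, the pseudouridine synthase, had 65.4 and 110 UMIs, a log2 ratio of -1.27 (-1.74 to -0.82). Gar1 had 31 and 46, at -1.08 (-1.79 to -0.39), Nhp2 had 7 and 29, at -2.56 (-4.00 to -1.34), and Nop10 had 1 and 17. Of the assembly factors, Naf1 had 33 and 21, at 0.14 (-0.69 to 1.00), and Shq1 had 4 and 10. Naf1 was not resolved from equality, and by STAR it stood at -1.41 (-1.86 to -0.97).

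Other noncoding RNAs near this class were counted too. Terc, the telomerase RNA with an H/ACA domain, had 0 UMIs in both libraries and both matrices. The 8 small Cajal body RNAs guide the modification of spliceosomal RNAs and are of the H/ACA, the C/D or a mixed kind. Of these, 2 have the ACA at the exact place, Scarna8 and Scarna13. Scarna2, which lacks it there, had 503 UMIs in nuclei against 6, at a log2 ratio of 5.88 (4.74 to 7.33). Over all barcodes Scarna13 had 96 against 6 UMIs, at 4.65 (3.47 to 6.13), and Scarna6 40, Scarna9 15, Scarna17 15 and Scarna8 6, each against 0. Scarna10 had 9 against 1 and Scarna3b 0 against 0.

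Per nucleus, 73 of 1335 in situ polyadenylated nuclei (5.47%, 4.31 to 6.83%) and 10 of 1123 standard nuclei (0.890%, 0.428 to 1.63%) had an H/ACA UMI. The highest count in 1 nucleus was 3 and 1 UMIs, and 5 in situ polyadenylated nuclei had more than 1, in each case from more than 1 gene. Nuclei with an H/ACA UMI were deeper in the in situ polyadenylated library, with a median of 1497 against 1076 UMIs. With every nucleus thinned to 750 UMIs, 36 of 1335 (2.70%, 1.90 to 3.71%) and 6 of 1120 (0.536%, 0.197 to 1.16%) had one, where 3 standard nuclei fell short of that number once their counts were rounded. In barcodes of 1 to 100 UMIs, 444 of 229964 and 24 of 226358 had one, and in the barcodes of this class that were nuclei in the other library, 502 and 562, there were 0 H/ACA UMIs.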

How the data were processed

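Per the labels and the study's methods, the authors trimmed reads with cutadapt 3.4 and deposited, for each library, kallisto 0.48.0/bustools 0.41.0 matrices of estimated counts (UMIs per barcode and gene, not always whole) and STAR 2.7.10a matrices of whole UMI counts, all on GRCm39 with GENCODE M28. The sources used here do not say how barcodes entered the STAR matrix. Both matrices were used as deposited, with estimated counts rounded only for intervals and thinning.

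UMIs were summed over nuclei (over 750 UMIs, under 5% mitochondrial; the mitochondrial limit removed 0) and over barcodes of 1 to 100 UMIs. Shares have exact Clopper-Pearson 95% intervals and ratios of CPM exact conditional Poisson intervals (Python 3.11.15, SciPy 1.17.1); both cover counting error only, since there is 1 library per group. A count of 0 was set to 3 UMIs, and a ratio made this way leaves out the counting error of the other count. No doublet caller was run; the 5% of nuclei with the most UMIs were left out as an alternative. Positions, hosts and 31-mers came from GENCODE M39, whose gene models may differ from M28. The sequence of 1 of the 12 highest genes is not reported here. The functions were tested on simulated counts. Named genes were the 12 highest per 100 nt in in situ polyadenylated nuclei, those with 3 or more UMIs in standard nuclei, the 5 highest and 5 lowest in the shallow-over-nuclei and STAR-over-kallisto ratios (only Snora57 reached 20 UMIs for the latter), 8 listed by name, the hosts of the first 12 and the particle's proteins. The genes and lists were chosen with earlier results of these data known.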

Additional observations from a re-analysis of the deposited data

Results flagged for a closer look

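SNORA2C, an entry outside the 38 genes because its listed symbol is in capitals, had 29 UMIs over all barcodes of the in situ polyadenylated library and 0 over the standard library. It is named Snora34 in GENCODE M39. It was singled out as a signal in a gene that the comparisons above do not use, above the level in the standard library. In nuclei it had 3 UMIs and in barcodes of 1 to 100 UMIs 17, against 0 in both classes of the standard library, and STAR gave it 0. The capitalised entry SNORA36B had 2 UMIs over all barcodes of each library, a log2 ratio of 0.65 (-3.14 to 4.43). SNORA16A and the entry ENSMUSG00002075991, named Snora19 in GENCODE M39, had 0 in both.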

How the results depend on the processing

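No paired analysis was possible because the groups hold 1 library apiece. The log2 ratio of the H/ACA share between nuclei of both libraries was 2.47 and stayed within its counting interval under all alternatives but scaling to the median protein-coding gene (3.66); the STAR matrix gave 2.92, and leaving out barcodes listed in both libraries, chosen after seeing the data, gave 2.07. It was 3.56 with rRNA, mitochondrial genes, Mir6236 and ENSMUSG00002075551 out of the denominator and 3.21 without Snora43, Snora17 and Snora57 (chosen after seeing the data). The ratio of barcodes of 1 to 100 UMIs to nuclei, 2.44, fell to 0.63 when the shallow class was over 100 to 500 UMIs. The log2 ratio of H/ACA to C/D UMIs, -5.14, was -7.04 by STAR and, in an alternative chosen after seeing the data, -3.78 without Snord118, Snord13 and Snord17. By STAR 3 genes were detected in nuclei, not 14, and 1 was at least 2-fold higher; with a minimum of 5 UMIs per gene 7 were, and in barcodes of 1 to 100 UMIs 9 (chosen after seeing the data), against 0 with the minimum of 20. The STAR over kallisto ratio, 0.67 on the log2 scale, moved within its interval under each alternative. Depth limits single genes in nuclei by kallisto, where Snora78 with 11 UMIs had the most; by STAR Snora57 had 96 and 35 genes had 0.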
